A study of Sus scrofa with 19 samples.

Results

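The genes described are the heat shock proteins and co-chaperones measured in pig longissimus dorsi (LD) muscle. They were taken by symbol: every probe set of the array with a single gene symbol that begins with HSPA, HSPB, HSPD, HSPE, HSPH, HSP90, DNAJ, CCT plus a digit, STIP or BAG, or that is PPID, TCP1 or HSF1. This rule gave 58 genes from 95 probe sets, of 6765 genes and 10069 probe sets with a single symbol, and the brightest probe set on average stood for each gene. The muscle came from Duroc barrows of a commercial line kept under standard farm conditions to 190 days of age. The animals had been ranked on carcass, plasma and muscle fat traits, and one array was hybridised per pig from the upper extreme (LD HIGH, 10 pigs) and from the lower extreme (LD LOW, 9 pigs). The pigs are separate animals of half-sib families, and the labels give neither family nor laboratory batch for a pig. All values are log2 expression values. A difference is the LD HIGH mean minus the LD LOW mean.

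Molecular chaperones bind unfolded proteins and help them to reach or keep their folded state. In the cytosol, HSP70 proteins work in cycles with J-domain proteins of the DNAJ family, HSP110 proteins exchange their nucleotide, HSP90 acts on partly folded clients, and the ring-shaped chaperonin TRiC folds actin and tubulin. Mitochondria and the endoplasmic reticulum (ER) each have their own HSP70, HSP60 or HSP90 relatives, and small heat shock proteins, which are abundant in muscle, hold unfolded proteins without ATP. The transcription factor HSF1 switches on many of the cytosolic and mitochondrial genes when unfolded protein accumulates, whereas the ER chaperones mostly answer to the unfolded protein response.

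Of the 58 genes, 57 were above all 17 tag controls, which match no pig transcript, on all 19 arrays. DNAJC9 was above them on 17 arrays. Array medians lay between 3.43 and 3.59, and the least similar pair of arrays correlated with r = 0.970 over all probe sets. A few pigs stood apart across the array. The LD HIGH pig 8697 held the highest value for 12.8% and the lowest for 12.6% of the 5348 genes above background on all arrays, and the LD LOW pig 2157 held the highest for 12.6%. The skeletal muscle markers, of which 7 of 9 were measured, had summed levels of 17.72 to 17.81 in LD HIGH and 17.72 to 17.87 in LD LOW pigs. In whole muscle, fewer cells of a type and less RNA per cell cannot be told apart.

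No chaperone gene passed the test between the groups. With limma, 0 of 23999 probe sets had an adjusted p under 0.05, which is 0% of those tested, and the smallest adjusted p was 0.993. An unadjusted p under 0.05 was reached by 843 probe sets (3.51%), of which 449 (1.87% of those tested) were higher in LD HIGH. Many probe sets lie near background, unlike most chaperone genes. Of the 5348 genes above background on all arrays, 289 had a limma unadjusted p under 0.05, 182 of them higher in LD HIGH. Among the 58 chaperone genes, 8 had an unadjusted p under 0.05, all with the higher mean in LD HIGH. These were HSPA6, HSPH1, DNAJA1, CCT8, PPID, HSPBP1, HSPD1 and HSPE1. The number changed with single pigs, from 3 without the LD LOW pig 1594 or without the LD LOW pig 1918 to 14 without the LD HIGH pig 1536 and 15 without the LD LOW pig 8700. The shares over all genes in these same fits are not given here, so whether the change is particular to chaperones cannot be told. None of the 58 was called in any of these fits. The values of both groups overlapped for every gene.

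The LD HIGH mean was above the LD LOW mean for 49 of the 58 genes (84.5%), whereas it was for 2926 of the 5348 genes above background (54.7%). This is a description of genes that vary together, not 58 independent results. The median difference was 0.18 over the chaperone genes and 0.015 over the genes above background. By list, the median was 0.38 for the cytosolic HSP70, HSP110, HSP90 and HSP40 genes, 0.26 for the mitochondrial genes, 0.19 for the small heat shock proteins, 0.17 for TRiC, 0.14 for the ER genes, 0.13 for the co-chaperones with HSF1 and 0.02 for the genes to which no compartment was assigned. The order of these medians rested partly on single pigs. Without the LD HIGH pig 8697 the cytosolic median was 0.20, below the mitochondrial one of 0.21 in the same fit. The small heat shock protein median was 0.10 without the LD LOW pig 1594. The ER median was 0.06 without the LD LOW pig 1918, 0.09 without the LD HIGH pig 2144, and 0.21 without the LD LOW pig 8700. The median of the co-chaperones with HSF1 was 0.06 to 0.08 without the LD HIGH pig 8697 or the LD LOW pig 1444, 1539 or 1918, and 0.19 and 0.23 without the LD LOW pigs 2172 and 8700. Leaving out single pigs kept the number with a higher LD HIGH mean between 45 and 51.

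**Figure D1:**
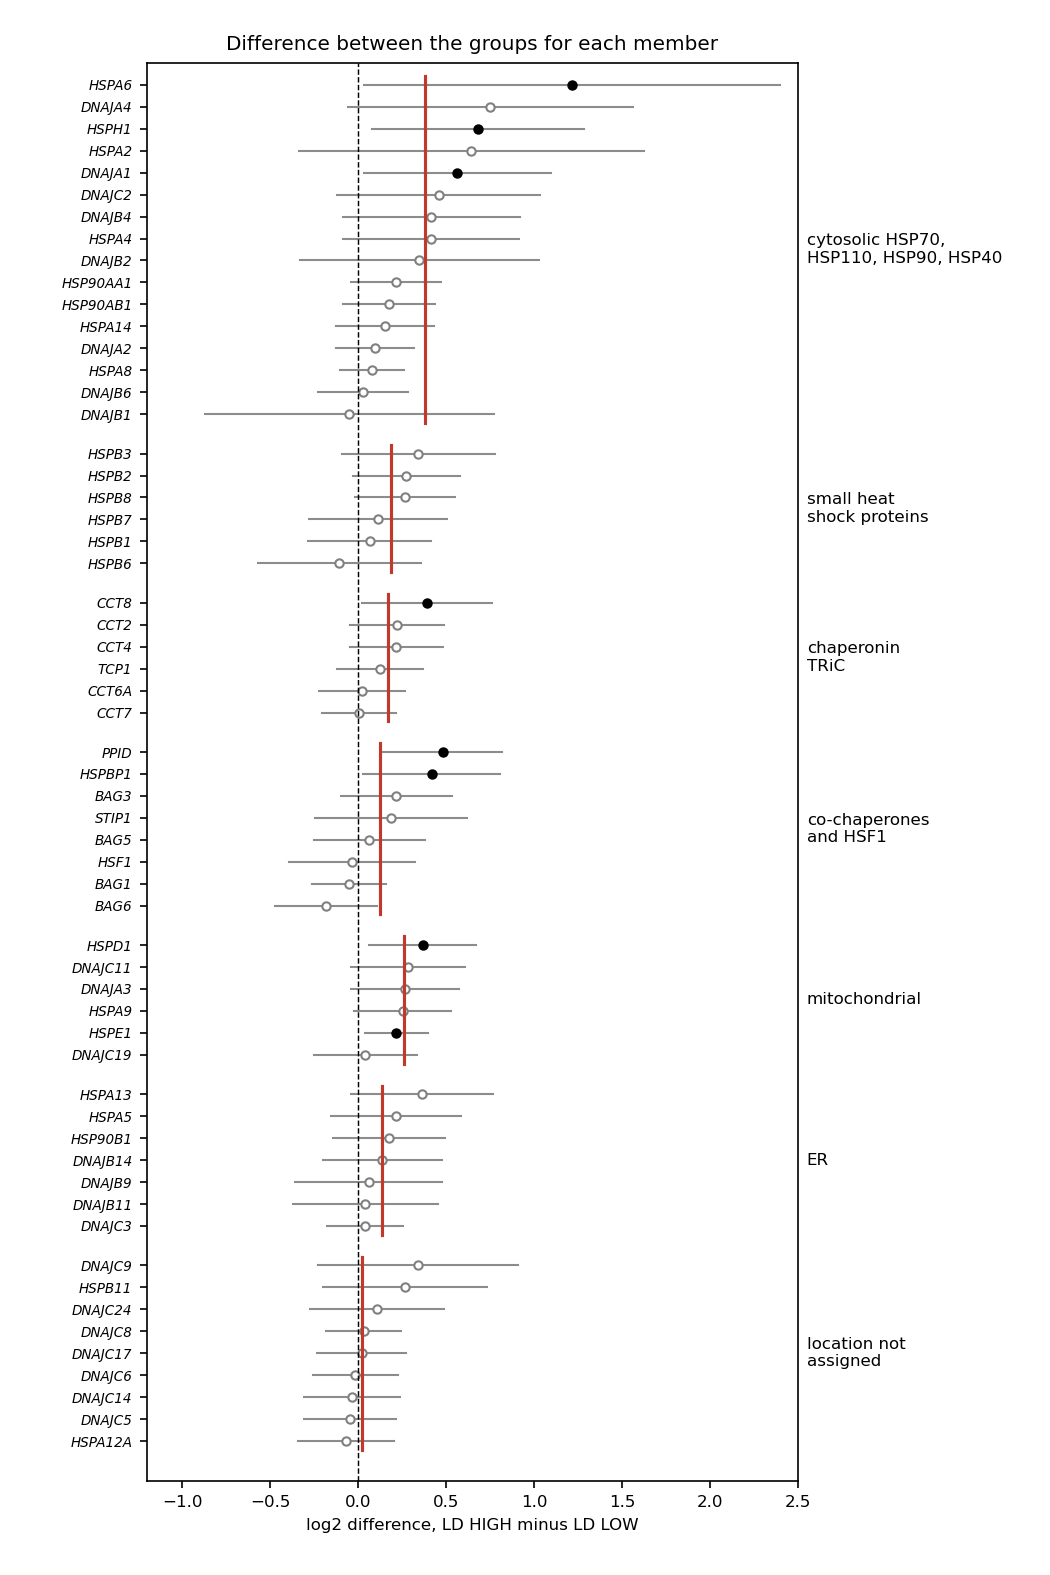
Log2 difference (LD HIGH minus LD LOW, horizontal axis) of each of the 58 genes, grouped by list. Points are differences with their 95% confidence interval from limma, filled where the unadjusted p was under 0.05, and red lines mark list medians. The cytosolic median is 0.38 with all pigs and 0.20 without the LD HIGH pig 8697.

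The cytosolic list held the widest differences and the widest spread between pigs. Of 22 genes listed, 16 were measured, 15 had the higher mean in LD HIGH, and 3 had an unadjusted p under 0.05. HSPA6, a stress-inducible HSP70 (chromosome 4, 88970592 to 88973109 in Sscrofa11.1), spanned 6.84 to 10.95 with a median of 9.94 in LD HIGH pigs, against 5.77 to 9.99 with a median of 7.92 in LD LOW pigs. Its lowest LD HIGH pig lay below the LD LOW median, and its highest LD LOW pig lay just above the LD HIGH median. The means were 9.46 ± 1.29 in LD HIGH and 8.24 ± 1.37 in LD LOW pigs (SD), a difference of 1.22 with a standard error of 0.57 (limma unadjusted p = 0.0448, adjusted p at least 0.993).

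HSPH1, the cytosolic HSP110 that acts as a nucleotide exchange factor of HSP70 (chromosome 11, 7733874 to 7759528), spanned 11.44 to 13.17 with a median of 12.34 in LD HIGH pigs and 10.72 to 12.79 with a median of 11.84 in LD LOW pigs. All but 2 of the 10 LD HIGH pigs were above the LD LOW mean, although the groups overlapped over most of their range. The difference was 0.68 ± 0.29 (SE; unadjusted p = 0.0285). DNAJA1, a J-domain partner of HSP70 (chromosome 10, 33432529 to 33445556), spanned 10.95 to 12.60 with a median of 11.78 in LD HIGH pigs and 10.33 to 12.76 with a median of 11.13 in LD LOW pigs. The highest DNAJA1 value of all belonged to the LD LOW pig 8700. The difference was 0.56 ± 0.25 (SE; unadjusted p = 0.038), but a dimmer probe set of DNAJA1, above background on all arrays, differed by -0.25 and did not follow the brighter one across pigs (r = -0.01 within groups).

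DNAJA4, another J-domain protein, had means of 9.87 ± 0.79 in LD HIGH and 9.12 ± 1.02 in LD LOW pigs, and a difference of 0.75 (95% interval -0.06 to 1.56). HSPA4, a second HSP110, had means of 9.70 ± 0.45 in LD HIGH and 9.29 ± 0.64 in LD LOW pigs, and DNAJB4 had 12.65 ± 0.48 in LD HIGH and 12.24 ± 0.64 in LD LOW pigs. Both differed by 0.42, with intervals that included 0. HSPA2, an HSP70 best known from the testis, differed by 0.64, but that value rested on the LD HIGH pig 8697 at 11.72. The other 9 LD HIGH pigs averaged 7.82 ± 0.61 (SD), no LD LOW pig was above 8.64, and the difference without pig 8697 was 0.25.

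Other cytosolic chaperones were closer between the groups. HSPA8, the constitutive HSP70, spanned 13.82 to 14.43 with a median of 14.06 in LD HIGH pigs and 13.61 to 14.33 with a median of 14.03 in LD LOW pigs. Its groups overlapped almost completely, and the difference was 0.08 (95% interval -0.10 to 0.26). HSP90AA1 and HSP90AB1, the inducible and the constitutive cytosolic HSP90, had differences of 0.22 (-0.04 to 0.47) and 0.17 (-0.09 to 0.43). DNAJB1, a heat-inducible J-domain protein, had means of 9.32 ± 1.06 in LD HIGH and 9.37 ± 0.72 in LD LOW pigs and the only negative difference of the list, -0.05. The sign of that value changed with the removal of single pigs and with the 3′ minus 5′ control signal as a covariate.

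**Figure D2:**
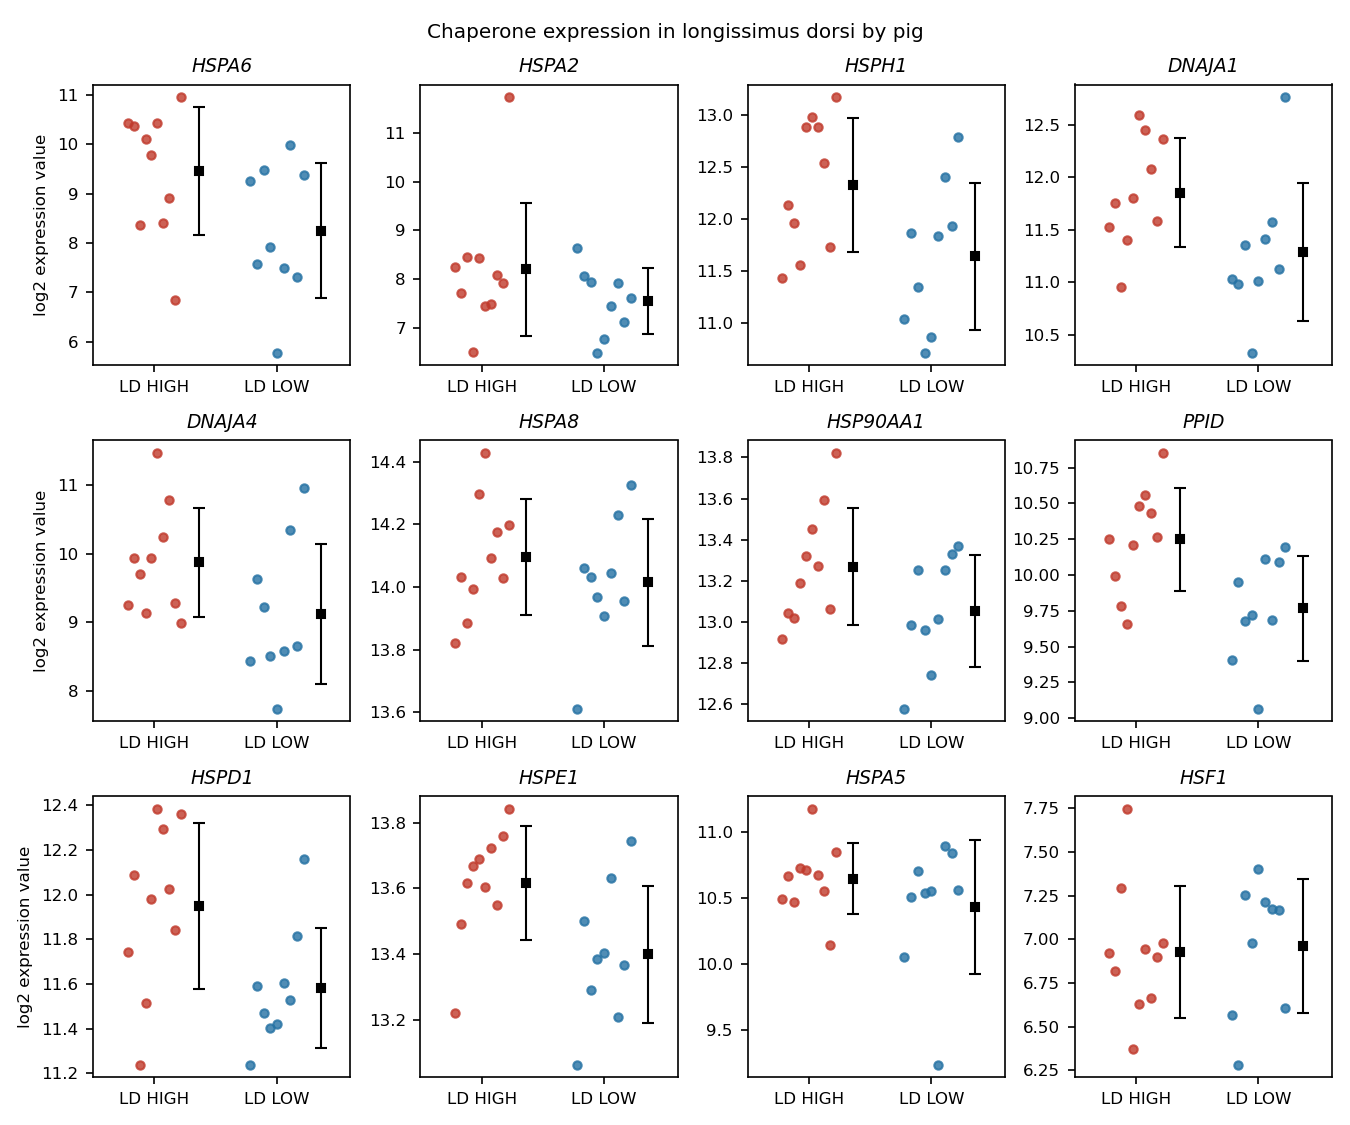
Log2 expression values (vertical axis) of 12 chaperone genes in 10 LD HIGH and 9 LD LOW pigs, each circle 1 pig, with squares and bars for the mean and SD. The groups overlap for every gene, and the single high HSPA2 value of 11.72 belongs to the LD HIGH pig 8697.

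All 6 small heat shock proteins listed were measured, 5 had the higher mean in LD HIGH, and none had an unadjusted p under 0.05. HSPB8, the partner of BAG3 in the autophagic removal of damaged muscle proteins, spanned 13.62 to 14.54 with a median of 13.90 in LD HIGH pigs and 13.01 to 14.14 with a median of 13.81 in LD LOW pigs. Only 1 LD HIGH pig fell below the LD LOW mean, and the difference was 0.26 (95% interval -0.02 to 0.55). HSPB2 and HSPB3, which form a complex in muscle, differed by 0.27 (-0.03 to 0.58) and 0.34 (-0.09 to 0.78). HSPB1, known as HSP27, spanned 13.65 to 14.73 in LD HIGH and 13.47 to 14.80 in LD LOW pigs, a difference of 0.07. HSPB7, expressed mainly in heart and skeletal muscle, differed by 0.11. HSPB6 was the one with the lower mean in LD HIGH, 10.83 ± 0.54 against 10.93 ± 0.48 in LD LOW pigs, and its dimmer probe set had the opposite sign (0.25).

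In TRiC, 6 of 9 subunits listed were measured and all 6 had the higher mean in LD HIGH. CCT8 spanned 10.05 to 11.35 with a median of 10.73 in LD HIGH pigs and 9.79 to 10.98 with a median of 10.35 in LD LOW pigs. In 8 of 10 LD HIGH pigs the value was above the LD LOW mean, and the difference was 0.39 ± 0.18 (SE; unadjusted p = 0.0388). CCT2 and CCT4 both differed by 0.22, each with an interval from -0.05, and TCP1 by 0.13 (-0.12 to 0.37). By their brightest probe sets the remaining subunits were level between the groups in their means, with differences of 0.02 for CCT6A (-0.22 to 0.27) and 0.0035 for CCT7 (-0.21 to 0.21). For CCT6A this depended on the probe set. Its second one, above background on all arrays, differed by 0.20 and had r = 0.67 to the brightest. Of its 3 probe sets, 2 had a positive difference. By brightest probe set the 6 subunits thus spread over 0.0035 to 0.39, although they are parts of the same ring, and CCT6A and CCT7 turned negative without some single pigs, down to -0.027 and -0.042.

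Among the co-chaperones with HSF1, 8 of 10 were measured and 5 had the higher mean in LD HIGH. PPID, the cyclophilin 40 that binds HSP90, had the smallest unadjusted p of the 58 genes (0.0077). It spanned 9.66 to 10.85 with a median of 10.26 in LD HIGH pigs and 9.07 to 10.19 with a median of 9.72 in LD LOW pigs. In 9 of 10 LD HIGH pigs the value lay above the LD LOW mean, and the difference was 0.48 ± 0.16 (SE). HSPBP1, a nucleotide exchange factor of HSP70, spanned 5.39 to 6.44 with a median of 5.93 in LD HIGH pigs and 5.20 to 6.59 with a median of 5.27 in LD LOW pigs. Its highest value was that of the LD LOW pig 2157, and the difference was 0.42 ± 0.19 (SE; unadjusted p = 0.0365). STIP1, which links HSP70 to HSP90, differed by 0.19 (-0.24 to 0.62). BAG3, a co-chaperone of HSP70 needed for the upkeep of the muscle Z-disc, had means of 12.73 ± 0.22 in LD HIGH and 12.52 ± 0.45 in LD LOW pigs. BAG1 and BAG6 had the lower mean in LD HIGH, by -0.05 and -0.18, both with intervals that included 0. HSF1 spanned 6.37 to 7.74 with a median of 6.91 in LD HIGH pigs and 6.28 to 7.40 with a median of 7.17 in LD LOW pigs, a difference of -0.03 (-0.39 to 0.33).

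The 6 mitochondrial chaperones measured, of 8 listed, all had the higher mean in LD HIGH. HSPD1, the mitochondrial HSP60, spanned 11.24 to 12.38 with a median of 12.00 in LD HIGH pigs and 11.24 to 12.16 with a median of 11.53 in LD LOW pigs. The lowest values of both groups were the same to the second decimal, and 8 LD HIGH pigs were above the LD LOW mean. The difference was 0.37 ± 0.14 (SE; unadjusted p = 0.02). HSPE1, the co-chaperonin that caps the HSP60 ring, spanned 13.22 to 13.84 with a median of 13.64 in LD HIGH pigs and 13.06 to 13.74 with a median of 13.38 in LD LOW pigs. In 9 of 10 LD HIGH pigs it was above the LD LOW mean, and the difference was 0.22 ± 0.09 (SE; unadjusted p = 0.0207). Both genes are neighbours on chromosome 15 (HSPD1 at 101360355 to 101373498, HSPE1 at 101374019 to 101376146, Sscrofa11.1), 521 bases apart. HSPA9, the mitochondrial HSP70, differed by 0.25 (-0.03 to 0.53). Its J-domain partner DNAJA3 differed by 0.27 (-0.04 to 0.57) and DNAJC11 by 0.28 (-0.04 to 0.61). DNAJC19, part of the protein import motor, differed by 0.04, and the sign turned without the LD HIGH pig 1540 or the LD LOW pig 2172.

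All 7 ER chaperones measured, of 10 listed, had the higher mean in LD HIGH, and none had an unadjusted p under 0.05. HSPA5, the ER HSP70 known as BiP (chromosome 1, 265930044 to 265934959), spanned 10.14 to 11.18 with a median of 10.67 in LD HIGH pigs and 9.24 to 10.90 with a median of 10.56 in LD LOW pigs. The value of 9.24 belonged to the LD LOW pig 2157. The difference was 0.21 (-0.15 to 0.58), and 0.06 without that pig. HSP90B1, the ER HSP90 known as GRP94, differed by 0.18 (-0.14 to 0.49). HSPA13, a microsomal HSP70 relative, differed by 0.36 (-0.04 to 0.76), but its dimmer probe set by 0.05 with r = -0.19 to the brighter one. DNAJB9, DNAJB11 and DNAJC3, ER J-domain proteins that work with BiP, differed by 0.06, 0.04 and 0.04. Each of these 3 turned negative without some single pigs, DNAJB9 and DNAJC3 in 1 fit each and DNAJB11 in 5 fits, down to -0.035, -0.017 and -0.022.

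The 9 genes to which no compartment was assigned divided into 5 with the higher and 4 with the lower mean in LD HIGH. DNAJC9, a histone chaperone near background, differed by 0.34 (-0.23 to 0.91), and HSPB11 by 0.27 (-0.20 to 0.73). The other 7 lay between -0.07 for HSPA12A and 0.11 for DNAJC24. HSPA12A and DNAJC6 were about as dim as DNAJC9, with means of 3.20 and 3.44 against 3.40, but above background on all arrays.

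Further genes of protein folding that the symbol rule did not take were read from fixed lists. Of 10 HSP90 partners and protein quality control genes measured, 8 had the higher mean in LD HIGH, 0 were called by limma, and 2 had an unadjusted p under 0.05. SUGT1, an HSP90 co-chaperone, had means of 6.56 ± 0.55 in LD HIGH and 5.97 ± 0.42 in LD LOW pigs (unadjusted p = 0.0135). CRYAB, the small heat shock protein alpha-B crystallin, had 14.12 ± 0.35 in LD HIGH and 13.79 ± 0.35 in LD LOW pigs (unadjusted p = 0.0432), and its annotation overlaps that of HSPB2 on chromosome 9. In the ER folding and unfolded protein response list 8 of 12 had the higher mean in LD HIGH, in the mitochondrial folding list 4 of 4 and among the prefoldins 4 of 5. No gene of these 3 lists had an unadjusted p under 0.05. DDIT3, a transcription factor of the unfolded protein response, differed by 0.77 with means of 7.53 ± 0.81 in LD HIGH and 6.76 ± 0.99 in LD LOW pigs.

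Apart from the groups, the genes differed widely in how much they varied between pigs. HSPA6 had a within-group SD of 1.33 and HSPA2 of 1.09, followed by DNAJB1 (0.92), DNAJA4 (0.91) and DNAJB2 (0.75). All 5 are cytosolic HSP70 or J-domain genes. An SD over 1 was found for 1.12% of the genes above background. From its lowest to its highest pig HSPA6 covered a 36.1-fold range and HSPA2 a 37.2-fold range, which for HSPA2 was set by pig 8697. At the other end, HSPE1 and HSPA8 had an SD of 0.19, DNAJC3 and DNAJC8 of 0.20 and BAG1 of 0.21, and HSPA8 covered a 1.76-fold range.

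The same pigs tended to be high or low for many chaperones. The LD HIGH pig 8697 held the highest value of 19 of the 58 genes (32.8%), against 12.8% of all genes above background. The LD LOW pig 8700 held the highest value of 8 (13.8%), against 3.38% of all genes, and the LD HIGH pig 1612 of 7 (12.1%), against 4.73%. The lowest values fell most often to the LD LOW pig 1444 (11 genes, 18.97%, against 8.28% of all genes), the LD LOW pig 1594 (9, 15.5%, against 2.54%), the LD LOW pig 1918 (8, 13.8%, against 9.14%) and the LD HIGH pig 1536 (7, 12.1%, against 10.8%). For pig 1536 the share was near that over all genes. Expressed as the mean standardised level over all 58 genes, pig 8697 stood at 0.96, the LD HIGH pig 1612 at 0.61 and the LD LOW pig 8700 at 0.45, whereas the LD LOW pig 1918 stood at -0.86. Pigs did not keep the same order in every list. The LD HIGH pig 1533 was at 1.19 for the small heat shock proteins and -0.73 for the ER genes, and pig 8697 was at 1.44 for the cytosolic and 0.15 for the ER genes.

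**Figure D3:**
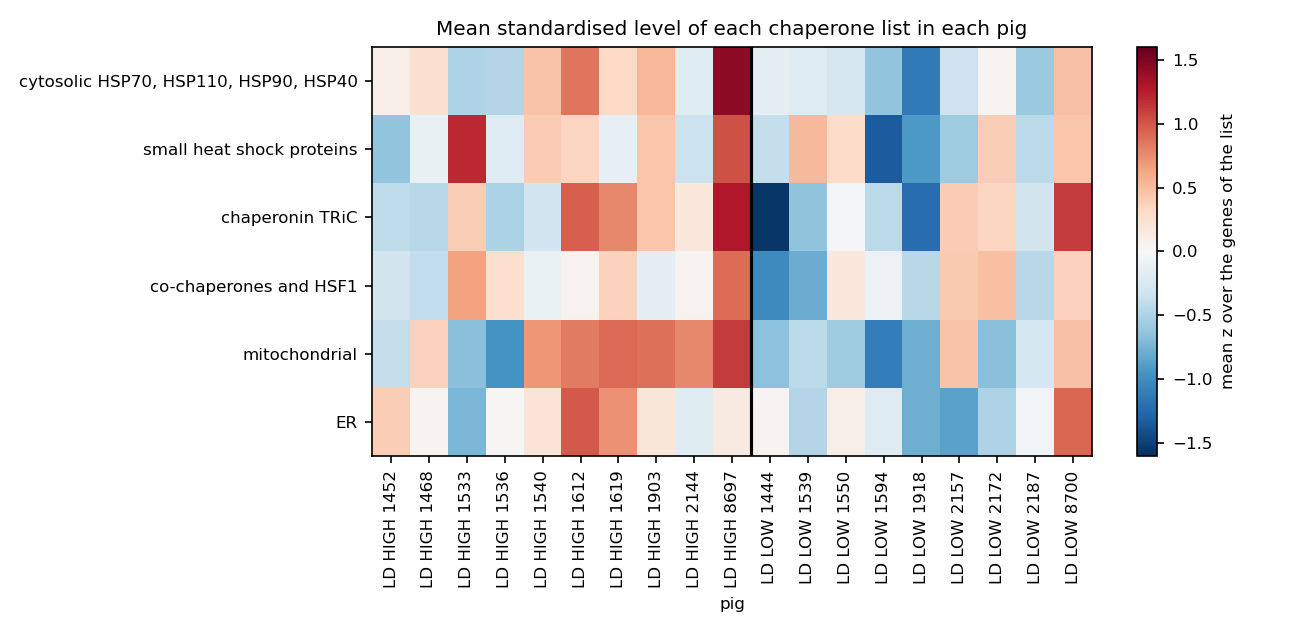
Mean standardised level (z over the 19 pigs, colour) of the genes of each compartment list (rows) in each pig (columns, LD HIGH left of the line). The LD HIGH pig 8697 is high in 5 lists and near 0 for the ER genes, and the LD LOW pigs 1444 and 1918 are lowest for TRiC.

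Co-variation was measured as the Pearson correlation over 19 pigs with the group means subtracted, so a difference between the groups adds nothing to it. These correlations share pigs and arrays and are given as descriptions without tests. Over all 1653 pairs of chaperone genes the median r was 0.16, and 15.3% of the pairs were above 0.5. Over all pairs of genes above background the median was 0.012, and 5.67% of the pairs were above 0.5. Within lists the median r was 0.53 for TRiC, 0.47 for the small heat shock proteins, 0.45 for the mitochondrial genes, 0.26 for the cytosolic genes, 0.12 for the ER genes and 0.10 for the co-chaperones with HSF1. Between compartments it was 0.29 for cytosolic with mitochondrial genes, 0.18 for cytosolic with ER genes and 0.15 for mitochondrial with ER genes. TRiC and the mitochondrial genes, which share no compartment, had a median r of 0.41. Several of these medians moved with single pigs. Within the ER genes the median was 0.11 to 0.23, highest without the LD LOW pig 2187 and 0.18 without the LD HIGH pig 1536, a range that overlapped the 0.18 to 0.29 of the cytosolic genes. Within the co-chaperones with HSF1 it was 0.023 without the LD LOW pig 1444, 0.17 and 0.18 without the LD LOW pigs 1918 and 2157, and 0.21 without the LD HIGH pig 1536. For mitochondrial with ER genes it was 0.076 without the LD LOW pig 8700, 0.1 without the LD HIGH pig 1533 and at most 0.19, whereas for cytosolic with mitochondrial genes it stayed between 0.24 and 0.33.

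Of the 20 closest pairs, 8 lay within a list and 12 between lists. CCT8 and PPID had the highest r of all pairs, 0.85, followed by DNAJA1 with HSPA4 (0.85), DNAJA1 with the mitochondrial HSPD1 (0.85), HSP90AA1 with its co-chaperone STIP1 (0.83) and CCT2 with CCT8 (0.82). No ER gene was in the 20 closest pairs. HSPB6, BAG6 and HSF1 ran the other way, with r below 0 to 48, 42 and 46 of the 57 other genes. HSPB6 correlated below 0 with 4 of the 5 other small heat shock proteins, down to -0.55 with HSPB3, whereas the other 5 all correlated with each other, between 0.36 and 0.74. Its r was -0.71 with CCT8 and -0.70 with HSPA9. BAG6, a co-chaperone for membrane proteins released in the cytosol, had r = -0.67 with HSPD1 and -0.64 with DNAJA1, but its dimmer probe set did not follow the brighter one (r = -0.01).

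**Figure D4:**
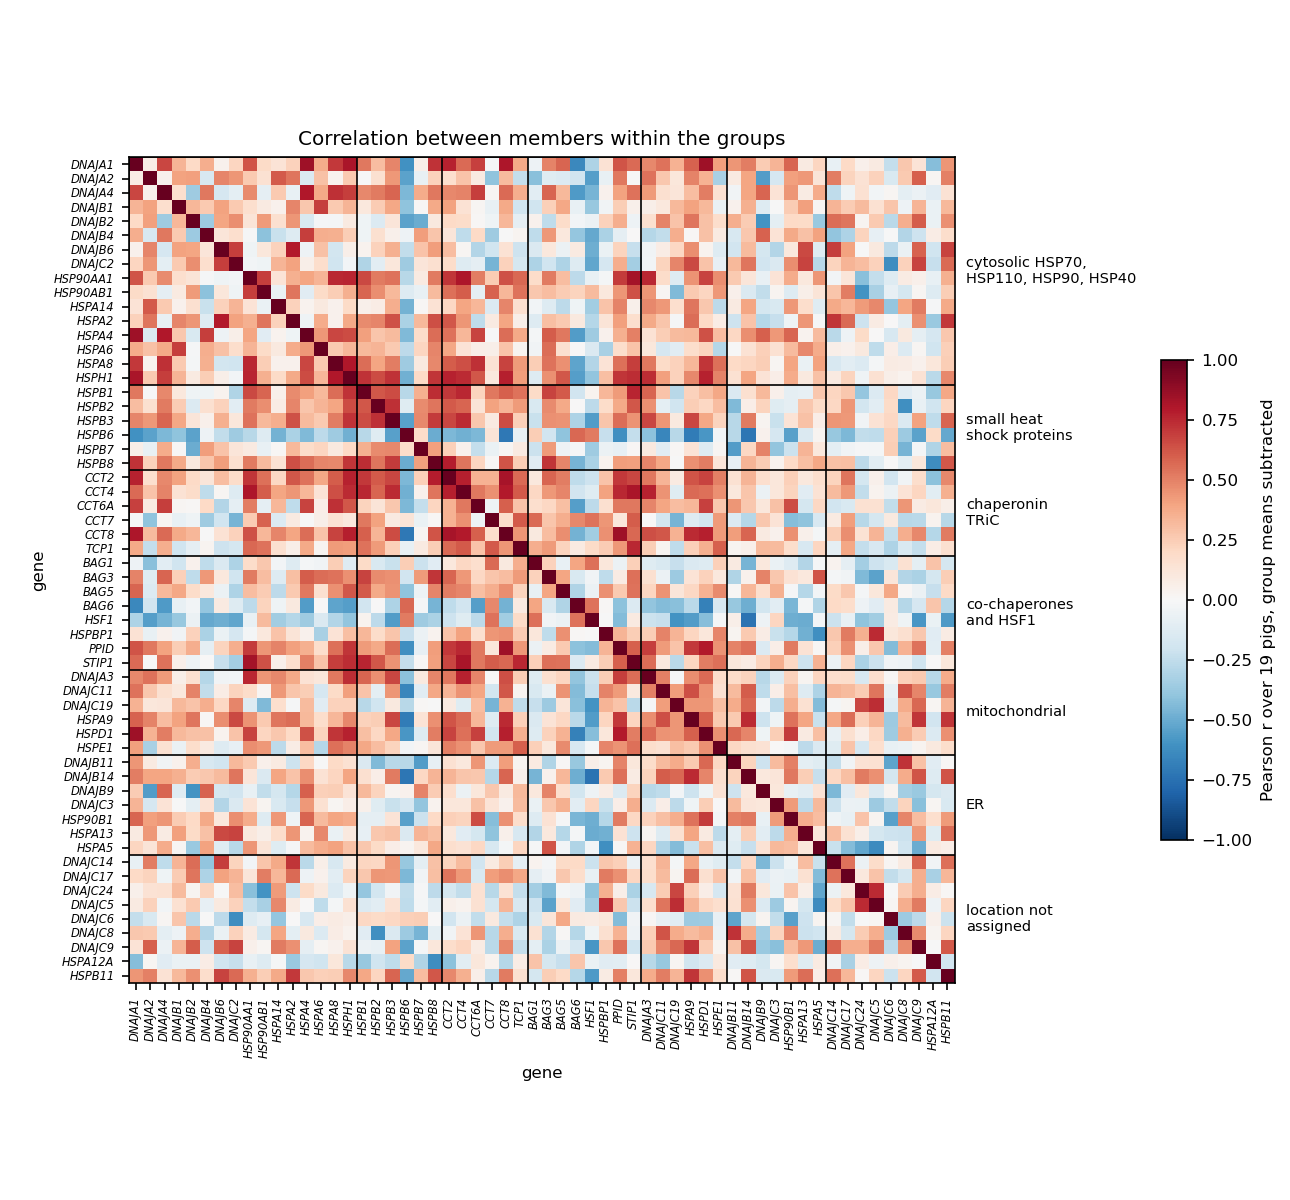
Pearson r (colour) between all pairs of the 58 genes over 19 pigs with group means subtracted, genes ordered by list on both axes and lists divided by black lines. The TRiC block has a median r of 0.53 and the ER block of 0.12, and the rows of HSPB6, BAG6 and HSF1 are below 0 for 48, 42 and 46 of 57 genes.

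With HSPH1 as the anchor, 13 of 56 chaperone genes above background had r over 0.7 (23.2%), against 45 of 5347 genes in all (0.842%), so chaperones made up 13 of those 45. They were DNAJA1 (0.81), HSPA8 (0.80), CCT8 (0.78), HSPD1, CCT2 and HSP90AA1 (0.77 each), CCT4 (0.75), STIP1 and DNAJA3 (0.74), HSPB1 and HSPB3 (0.72), and PPID and HSPB8 (0.71). The set holds cytosolic, TRiC, mitochondrial, small heat shock and co-chaperone genes but no ER gene. The number fell to 7 without the LD LOW pig 8700 and lay between 10 and 15 without any other pig. The genes outside the rule that were most like HSPH1 were RRP15 (0.86), GAR1 (0.82), RAP1B (0.80), ACTR3 and WDR12 (0.79 each).

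With the mitochondrial HSPD1 as the anchor, 6 of 56 chaperone genes had r over 0.7 (10.7%), against 0.748% of all genes. These were DNAJA1 (0.85), PPID (0.79), CCT8 (0.78), HSPH1 (0.77), HSPA8 (0.71) and the ER gene HSP90B1 (0.70). None of these 6 is a mitochondrial chaperone, and HSPA9 had 0.60 and HSPE1 0.46. The genes outside the rule most like HSPD1 were CCNC (0.88), TMEM33 (0.80), TMEM263 (0.79), EAF1 and NARS (0.78 each). With HSPA5 as the anchor, 0 of 56 chaperone genes had r over 0.7, against 37 of 5347 genes (0.692%). Its closest chaperone was BAG3 (0.63), and the genes outside the rule most like it were ZDHHC4 and SEPT11 (0.86 each), VPS36 (0.85), NUDT4 (0.83) and APLP2 (0.81). The LD LOW pig 2157 held the lowest value of both HSPA5 (9.24) and BAG3 (11.86). How far the count and the order of genes for the HSPA5 anchor rest on that pig was not tested.

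HSPA6 was added as an anchor after its spread had been seen. It was not close to HSPH1 (0.33). The gene most like it was HSP70.2 (0.86), a second inducible HSP70 that the symbol rule does not take, and next came ANKRD1 (0.76), a stress-responsive protein of the sarcomere, DNAJB1 (0.69), the transcription factor ATF3 (0.66), EIF1AX (0.66) and the heat shock factor HSF2 (0.65). The LD LOW pig 1918 held the lowest value of both HSPA6 (5.77) and ANKRD1 (11.59). The lowest HSP70.2 value was that of the LD LOW pig 1539, and those of ATF3 and HSF2 belonged to the LD LOW pig 2157. How far these correlations rest on single pigs was not tested. HSP70.2 spanned 14.10 to 15.21 with a median of 14.77 in LD HIGH pigs and 13.79 to 15.02 with a median of 14.27 in LD LOW pigs. The groups overlapped, and the difference was 0.41 ± 0.16 (SE; limma unadjusted p = 0.0179, adjusted p = 0.993). HSP70 genes are close relatives, and whether their probe sets share signal was not tested, because probe sequences were not used here.

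Correlations of 11 pairs of genes were tested across the 19 pigs by two-sided permutation of Pearson's r and Spearman's rho, with Benjamini-Hochberg adjustment over the 11. The pairs were chosen with earlier results of these data known, and the adjustment does not cover that choice. Permutation also treats pigs of unknown half-sib family as exchangeable. HSPH1 correlated with HSPA8 (r = 0.79, permutation adjusted p = 0.00022; rho = 0.80, adjusted p = 0.000495) and with HSP90AA1 (r = 0.80, permutation adjusted p = 0.00022; rho = 0.82, adjusted p = 0.00033). For HSPA8, r was 0.83 within LD HIGH (permutation p = 0.00278) and 0.78 within LD LOW pigs (exact permutation p = 0.0116), and for HSP90AA1 it was 0.80 within LD HIGH (permutation p = 0.00561) and 0.73 within LD LOW pigs (exact permutation p = 0.026). Without the 2 pigs farthest from the HSPH1 median r was 0.84 for HSPA8 and 0.78 for HSP90AA1. The pigs high for the HSP110 gene were thus high for the constitutive HSP70 and the inducible HSP90 in both groups.

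HSP90AA1 and HSP90AB1 had r = 0.72 (permutation adjusted p = 0.00132; rho = 0.63, adjusted p = 0.0104), with 0.66 within LD HIGH and 0.85 within LD LOW pigs, and 0.49 without the 2 farthest pigs (permutation p = 0.0496). Without the LD HIGH pig 8697 alone, r was 0.58 and still passed. HSPA8 and HSPD1, the HSP70 of the cytosol and the HSP60 of the mitochondria, had r = 0.71 (permutation adjusted p = 0.00173; rho = 0.72, adjusted p = 0.00297) and nearly the same r within LD HIGH (0.72) and LD LOW pigs (0.73), with 0.57 without the 2 farthest pigs. HSPD1 and HSPA9, both mitochondrial, had r = 0.68 (permutation adjusted p = 0.00383) and rho = 0.64 (permutation adjusted p = 0.0104). Their r was 0.70 within LD HIGH (permutation p = 0.0232) and 0.36 within LD LOW pigs (exact permutation p = 0.3495). Without the 2 farthest pigs it was 0.56. TCP1 and CCT2 of TRiC had r = 0.60 (permutation adjusted p = 0.00953) and rho = 0.59 (permutation adjusted p = 0.0159). Their r was 0.52 within LD HIGH (permutation p = 0.118) and 0.62 within LD LOW pigs (exact permutation p = 0.0699). Neither group passed alone, and without the 2 farthest pigs r was 0.59.

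The neighbouring genes HSPD1 and HSPE1 had r = 0.60 over all pigs (permutation adjusted p = 0.011; rho = 0.58, adjusted p = 0.0169), with 0.25 within LD HIGH (permutation p = 0.485) and 0.75 within LD LOW pigs (exact permutation p = 0.018). The difference between these 2 values was not tested. With the group means subtracted r was 0.46 and no longer passed (permutation adjusted p = 0.0763), so the pooled value includes the higher mean of both genes in LD HIGH.

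By Pearson's r, the pairs that involve the ER or HSF1 did not pass. HSPA5 and HSP90B1, the HSP70 and HSP90 of the ER, had r = 0.36 (permutation adjusted p = 0.134; rho = 0.23, adjusted p = 0.344), and 0.06 without the 2 farthest pigs. HSPA5 had r = 0.39 with HSPD1 (permutation adjusted p = 0.118; rho = 0.45, adjusted p = 0.0672) and 0.43 with HSPA8 (permutation adjusted p = 0.0938). By rank HSPA5 and HSPA8 did pass (rho = 0.55, adjusted p = 0.0235). Without the LD LOW pig 2157, whose HSPA5 value was the lowest, r of HSPA5 was 0.68 with HSPA8 and 0.49 with HSPD1, and both passed. For HSPA5 with HSPA8, r was 0.68 within LD HIGH and 0.27 within LD LOW pigs, and for HSPA5 with HSPD1 it was 0.55 within LD HIGH and 0.16 within LD LOW pigs. HSPH1 and the HSF1 transcript had r = -0.37 (permutation adjusted p = 0.128; rho = -0.35, adjusted p = 0.161), with -0.56 within LD HIGH and -0.23 within LD LOW pigs.

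**Figure D5:**
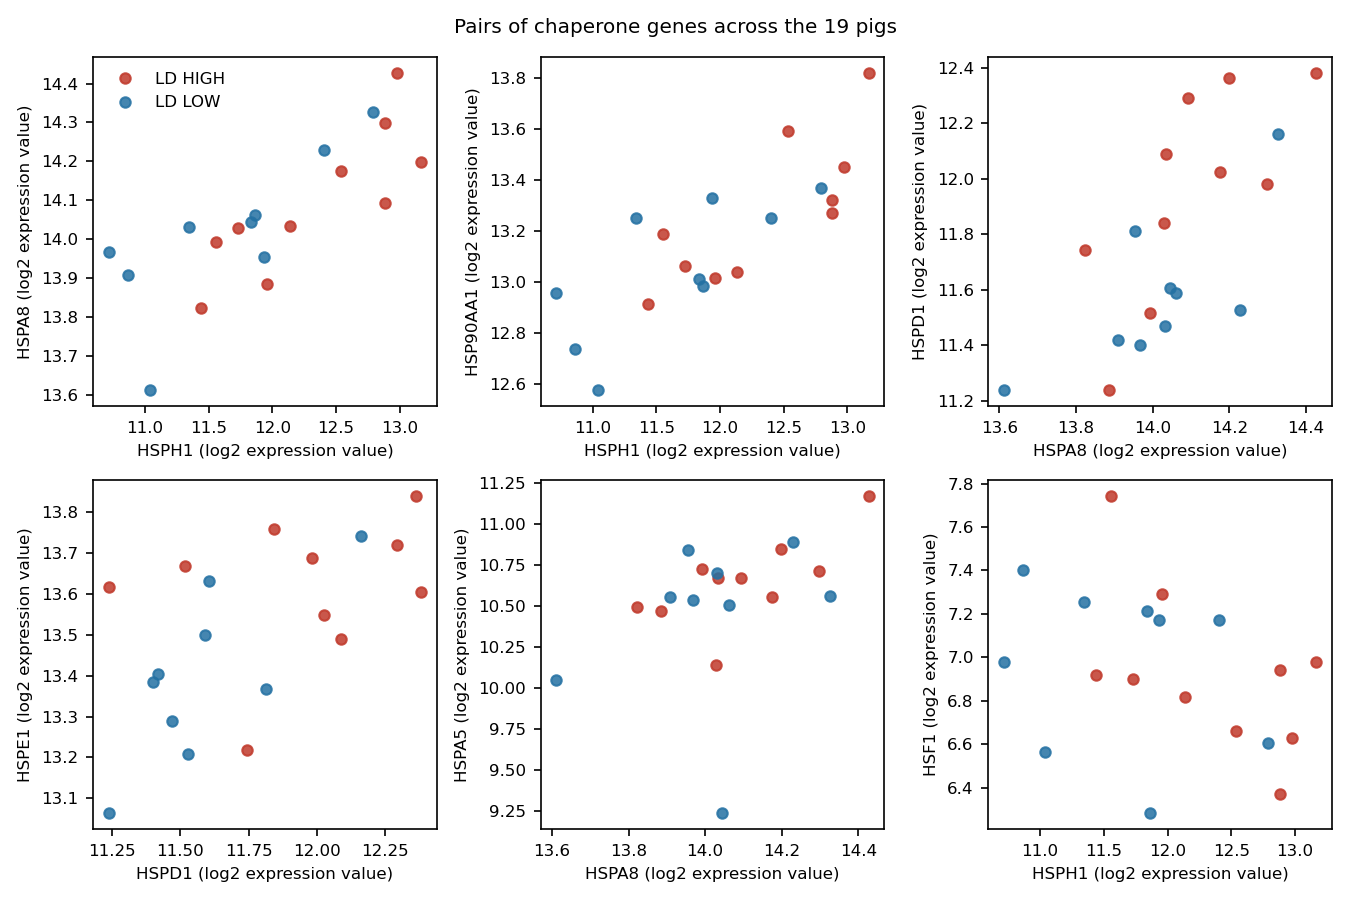
Log2 expression values of 6 pairs of chaperone genes (axes) in 10 LD HIGH (red) and 9 LD LOW (blue) pigs, 1 point per pig. HSPA8 and HSP90AA1 follow HSPH1 in both groups (r = 0.79 and 0.80), whereas the HSPA5 value of the LD LOW pig 2157 lies at 9.24, below all others.

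Values depend on which probe set stands for a gene. Of the 25 genes with several probe sets, 21 had a second one above background on all arrays, and in 12 of these 21 it gave the same sign of difference as the brightest. The median r between the brightest and the second probe set was 0.58. They followed each other closely for DNAJC2 (0.93), BAG3 (0.86), DNAJB9 (0.82) and HSP90AA1 (0.80), and for HSP90AA1 the second gave a larger difference (0.39). They did not for HSPA8 (0.20), whose second probe set was dim and differed by -0.06. HSP90AA1 had 5 probe sets, all above background on all arrays. Of these, 4 had the same sign of difference, and the lowest r to the brightest was -0.04. With the mean of all probe sets of a gene, 51 genes had the higher mean in LD HIGH, but the median difference of the cytosolic list was 0.22. HSPA6, HSPH1, CCT8, HSPBP1, HSPD1 and HSPE1 had a single probe set with one symbol.

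Markers of other cell types and RNA integrity were read beside these values, and no marker was called by limma. Of 4 adipocyte markers measured, 3 had the higher mean in LD HIGH, and the summed level was 11.19 to 11.87 in LD HIGH and 10.66 to 11.60 in LD LOW pigs. FABP4 differed by 0.58 (limma unadjusted p = 0.001) and ADIPOQ, above background on 18 arrays, by 1.39, whereas LEP was at background. All 5 macrophage markers measured, of 8 listed, had the lower mean in LD HIGH, with summed levels of 6.35 to 7.93 in LD HIGH and 6.56 to 7.83 in LD LOW pigs. Of these 5, only 3 were above background on all arrays, whereas C1QA was on 18 and MRC1 on 17. Of the smooth muscle markers 3 of 3, of the blood cell markers 2 of 2, of the fibroblast markers 2 of 3 and of the endothelial markers 1 of 5 had the higher mean in LD HIGH. The blood cell marker ALAS2 was above background on only 1 array, and the endothelial marker KDR on 0. The part of other cell types in the chaperone values was not tested. RNA integrity was read as the 3′ minus 5′ signal of the array's control transcripts, which was 1.04 ± 0.12 (SD) in LD HIGH and 1.07 ± 0.24 in LD LOW pigs. Over 19 pigs its r was -0.09 with HSPH1, -0.27 with HSPA8, -0.12 with HSPD1, 0.19 with HSPA5 and -0.45 with HSF1, and none of these 5 passed (smallest permutation adjusted p = 0.264). Without the 2 pigs farthest from each gene's median r lay between -0.43 and 0.16. The Spearman values of these 5 did not pass either (smallest permutation adjusted p = 0.291), but within the groups the signs were opposite for 3 genes. The r of this signal was 0.56 within LD HIGH and -0.68 within LD LOW pigs for HSPA8 (exact permutation p = 0.0551 in LD LOW), 0.46 within LD HIGH and -0.54 within LD LOW pigs for HSPD1, and 0.52 within LD HIGH and -0.35 within LD LOW pigs for HSPH1. For HSPA5 it was 0.61 within LD HIGH (permutation p = 0.0529) and 0.11 within LD LOW pigs, and for HSF1 -0.42 within LD HIGH and -0.51 within LD LOW pigs. The difference between the groups in these correlations was not tested. The list medians with that signal as a covariate were 0.39 for the cytosolic, 0.15 for the ER and 0.16 for the TRiC genes.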

How the data were processed

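Total RNA of LD muscle was hybridised to the Affymetrix porcine array, and the authors deposited log2 expression values of 24114 probe sets in 19 pigs. The submitters' processing notes name GCRMA, with no version stated in the labels or methods, whereas the published methods describe RMA. A second deposited table holds 4268 of the probe sets with identical log2 values (largest difference 0), and was used as an alternative only. The 115 control probe sets were left out of the tests.

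Probe sets were named from the platform annotation: 10069 had 1 symbol, 198 had several and were not named. Of the 58 genes, 57 were matched by Entrez ID to RefSeq (Sscrofa11.1), the source of all coordinates, and CCT6A was not matched. A gene was above background on an array where its value exceeded all 17 tag controls. The number of arrays limits the precision.

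All probe sets tested were fitted with limma 3.58.1 (R 4.3.3; linear models and moderated variances that follow mean signal, LD HIGH against LD LOW, Benjamini-Hochberg adjustment, threshold 0.05), after a check on simulated data. No family or batch term could be fitted. Gene pairs were tested with 100000 permutations, and exactly within LD LOW (Python 3.11.15, scipy 1.17.1). The alternatives were eBayes without a trend, 2 filters on probe sets, array centring, the 3′ minus 5′ control signal as a covariate, the mean of all probe sets, Spearman correlation, uncorrected group means and leaving out each pig.

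Genes were named by a rule: the 3 smallest p of each list, any gene past the threshold, the 5 largest and 5 smallest SDs, the genes of the fixed pairs, defining genes of each list, and the 5 genes outside the rule most like each anchor. Others were chosen after their values were seen. The members, lists and pairs were chosen with earlier results of these data known. Further choices, namely the count of higher means, the count of genes like HSPH1 and HSPA6 as an anchor, and the relations to the 3′ minus 5′ signal were made after seeing the data.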

Additional observations from a re-analysis of the deposited data

Results flagged for a closer look

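Each value was compared with the others of its group in 116 groups of chaperone values (58 genes in 2 groups) and 4 groups of array measures, and 13 of these 120 held a value far from the others by Dixon's criterion, where chance gives about 1 in 20, or 6. Of these, 3 belonged to the LD HIGH pig 8697, whose values were far above the other LD HIGH pigs: HSPA2 at 11.72 (others 7.82 ± 0.61, SD), HSP90AB1 at 13.32 (others 12.37 ± 0.19) and CCT2 at 12.08 (others 11.32 ± 0.15). The LD LOW pig 8700 was far above the other LD LOW pigs for HSPA4 at 10.82 (others 9.10 ± 0.31) and CCT2 at 11.77 (others 11.10 ± 0.20). The LD LOW pig 2157 was far above the other LD LOW pigs for HSPBP1 at 6.59 (others 5.37 ± 0.20) and DNAJC5 at 6.22 (others 5.51 ± 0.10).

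The other values stood alone in their pigs. DNAJB11 was at 5.16 in the LD HIGH pig 1533 (others 6.48 ± 0.22), and DNAJC6 was at 3.89 in the LD LOW pig 2172 (others 3.39 ± 0.09). HSPA12A was at 3.57 in the LD HIGH pig 1540 (others 3.12 ± 0.10) and at 4.28 in the LD LOW pig 1594 (others 3.10 ± 0.08). HSPA12A and DNAJC6 were among the dimmest chaperone genes, with means of 3.20 and 3.44. The array median of 3.59 was high in the LD HIGH pig 1536 (others 3.47 ± 0.03), and the 3′ minus 5′ control signal of 1.61 was high in the LD LOW pig 1444 (others 1.003 ± 0.146). Pig 1444 held the lowest value of 11 chaperone genes (18.97%, against 8.28% of all genes). The LD LOW pigs 1594 and 1918, with 9 and 8 lowest values, had signals of 1.13 and 0.95. Whether this signal bears on the low values of pig 1444 was not tested.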

How the results depend on the processing

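No chaperone gene and no probe set was called by limma under any alternative (lowest and highest count 0 over single pigs left out), and the number of chaperone genes with an unadjusted p under 0.05 lay between 3 and 15. The shares over all genes in the same alternatives are not given beside it. Without single pigs, list medians ranged from 0.20 to 0.47 (cytosolic, lowest without the LD HIGH pig 8697), 0.10 to 0.25 (small heat shock proteins, lowest without the LD LOW pig 1594), 0.12 to 0.22 (TRiC), 0.06 to 0.23 (co-chaperones with HSF1, lowest without the LD LOW pig 1444), 0.21 to 0.32 (mitochondrial) and 0.06 to 0.21 (ER, lowest without the LD LOW pig 1918). All kept their sign. Genes with the higher mean in LD HIGH numbered 45 to 51, and genes with r over 0.7 to HSPH1 numbered 7 (without the LD LOW pig 8700) to 15.

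Of the 11 pairs, HSPD1 and HSPE1 no longer passed with group means subtracted (r = 0.46) or with residuals after the 3′ minus 5′ signal and the group (r = 0.48), and r was 0.52 to 0.69 without single pigs. HSPA8 with HSPA5 (0.32 to 0.68) and HSPA5 with HSPD1 (0.28 to 0.49) passed by r without the LD LOW pig 2157, and HSPA8 with HSPA5 also by rank over all pigs (rho = 0.55). The other 8 kept their sign and side in every alternative run. The causes were not tested.

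The DNAJB1 difference turned positive with the covariate (0.0071). Among the genes named by a rule, small differences changed sign without single pigs: DNAJB1 (-0.20 to 0.13), DNAJB11 (-0.022 to 0.17), DNAJC19 (-0.018 to 0.11), DNAJC3 (-0.017 to 0.095), DNAJC8 (-0.0073 to 0.0797), HSF1 (-0.13 to 0.027) and HSPB1 (-0.012 to 0.15). The differences of CCT6A, CCT7, DNAJB6, DNAJB9, DNAJC5, DNAJC6, DNAJC14, DNAJC17 and HSPA12A changed sign as well. No paired analysis was possible because the groups share no replicate number.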
